A study of Mus musculus with 6 samples.

Results

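The Tox family holds 4 genes, Tox, Tox2, Tox3 and Tox4, which encode nuclear proteins with a single HMG box. Members were taken by symbol. All 4 were among the 55487 genes of the deposited count files, but only Tox and Tox4 were among the 13564 genes of the deposited normalized table and among the 13691 genes that had enough counts to be tested. After activation, CD4 naive (CD4N) cells without Foxo1 held about 3.5 times as much Tox transcript as control cells, whereas no difference was detected for Tox4. Tox2 was nearly undetected, and Tox3 was not detected beyond 1 count.

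CD4N cells were purified from lymph nodes of C57BL/6J mice and activated over 4 days by soluble anti-CD3 (0.1 µg/ml), to which 250000 CD3εKO splenocytes, devoid of T cells, were added to present the antibody. Foxo1TKO mice carry Foxo1 fl/fl alleles and a CD4-cre transgene, which deletes Foxo1 from the double-positive stage of the thymus onwards in both CD4 and CD8 T cells. Foxo1Ctrl mice carry the same Foxo1 fl/fl alleles without Cre. Each genotype gave 3 libraries, and the labels give 50000 CD4N cells per culture whereas the methods give another number. Mouse age is not given in the labels, and the paper describes the Foxo1-deficient mice of this experiment as young adult. The labels do not tie the libraries to separate mice, so that p-values measure the spread between these libraries only. Neither the labels nor the methods say that T cells were separated from splenocytes before RNA was extracted.

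The HMG box is a fold of helices that binds and bends DNA. Tox is needed in the thymus for the CD4 lineage, and in chronically stimulated CD8 T cells it is induced downstream of calcineurin and NFAT and maintains the exhausted state, which is marked by inhibitory receptors such as PD-1. Tox2 is linked to follicular helper T cells, Tox3 is best known from epithelium and neurons, and Tox4 is a widely expressed partner of a phosphatase complex on chromatin.

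The 4 genes lie on different chromosomes (GRCm38, GENCODE M21). Tox is at chr4:6686353-6991557 on the minus strand, Tox2 at chr2:163203125-163324170 on the plus strand, Tox3 at chr8:90247040-90348343 on the minus strand, and Tox4 at chr14:52279146-52296401 on the plus strand. Tox4 is the most compact, with a span of 17256 bases against 305205 for Tox. The most conserved coding stretch of 90 bases, found by alignment of the 4 coding sequences, encodes a lysine-rich segment and the start of the HMG box. It is shown because the members are most alike there, and reads of 1 member could be counted for another. The stretch lies within exon 5 of the aligned transcript of Tox, Tox2 and Tox3 and within exon 6 of that of Tox4, at chr4:6722226-6722315, chr2:163315845-163315934, chr8:90254363-90254452 and chr14:52287354-52287443. It is printed 5′ to 3′ on the coding strand, with capitals for the 64 of 90 bases that are identical in all 4 genes:
Tox: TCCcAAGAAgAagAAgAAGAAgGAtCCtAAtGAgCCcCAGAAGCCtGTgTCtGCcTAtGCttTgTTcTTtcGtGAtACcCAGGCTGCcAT
Tox2: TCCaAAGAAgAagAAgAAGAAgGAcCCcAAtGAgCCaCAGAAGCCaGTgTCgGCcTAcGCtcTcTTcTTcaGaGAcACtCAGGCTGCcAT
Tox3: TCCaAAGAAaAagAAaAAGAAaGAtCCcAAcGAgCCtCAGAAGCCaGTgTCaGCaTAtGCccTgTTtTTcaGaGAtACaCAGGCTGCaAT
Tox4: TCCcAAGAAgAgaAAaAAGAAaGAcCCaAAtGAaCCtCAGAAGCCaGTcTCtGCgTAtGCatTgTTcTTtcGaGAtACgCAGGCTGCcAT

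Within this stretch the pairs of genes shared between 78.9% and 84.4% of bases, whereas over the aligned coding sequences they shared between 49.9% and 58.1%. Over the coding sequences Tox was closest to Tox2, and Tox2 and Tox4 were the least alike. The longest exact match between the annotated transcripts of any pair was 24 bases (Tox and Tox3) on the same strand. The mean fragment lengths of the libraries were 161.6 to 170.5 bases, as derived from the deposited transcript and effective lengths. Neither the exact matches nor the fragment lengths show how reads that resemble several members were counted. Whether reads of a member were counted for another was not tested.

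Library totals were 14783890 to 19675447 expected counts. Foxo1, the targeted gene, had TMM-normalized counts (counts scaled between libraries by the trimmed mean of M-values) of 85.4, 46.5 and 115 in Foxo1TKO and of 1529, 2285 and 1598 in Foxo1Ctrl replicates 1 to 3. A gene was called different at an adjusted p under 0.05 (edgeR, quasi-likelihood, Benjamini-Hochberg over all genes tested) and a fold change over 1.5. By this rule 3144 genes were called (23.0%), 1525 higher (11.1%) and 1619 lower (11.8%) in Foxo1TKO. The 9 T cell markers summed to 5957 to 6739 TPM (the share of all transcripts, corrected for their length) in Foxo1TKO and to 7257 to 7355 in Foxo1Ctrl, with Cd28 called lower. The libraries also split along a second principal component, which held 17.1% of the variance and set Foxo1TKO replicate 1 and Foxo1Ctrl replicates 1 and 3 apart from the other 3 libraries.

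Tox rose in Foxo1TKO. Its normalized counts were 7416, 7697 and 9152 in Foxo1TKO replicates 1 to 3 and 2035, 2025 and 2903 in Foxo1Ctrl replicates 1 to 3. Every Foxo1TKO library thus lay far above the highest Foxo1Ctrl library, and the groups did not overlap. The means were 8088 ± 932 (SD, n = 3) in Foxo1TKO and 2321 ± 504 (SD, n = 3) in Foxo1Ctrl. The log2 fold change was 1.80 ± 0.19 (SE), or 3.48-fold (95% interval 2.55 to 4.75), with an adjusted p of 0.000671 (edgeR). Of the 2 members tested, Tox was the 1 called, against 23.0% of all genes tested, and the 1 without overlap between genotypes, against 42.7% of all genes tested (21.5% higher and 21.2% lower in Foxo1TKO). A call of 1 among 2 members was not read as a property of the family. By log2 fold change, Tox was 569th of the 13691 genes in order of increase, and 205th of the 9235 genes whose normalized counts averaged 100 or more. By adjusted p it was 319th.

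The spread of Tox between libraries was below that of most genes in Foxo1TKO, with a coefficient of variation of 11.5% (median of all tested genes 19.5%), and near the middle in Foxo1Ctrl, at 21.7% (median 22.3%). These medians include genes of far lower counts than Tox, and genes of like level were not compared. Foxo1Ctrl replicate 3 had the highest Tox of its group, and leaving it out gave the largest log2 fold change of Tox among the libraries left out in turn, 1.99. Within the libraries on either side of the second component, the log2 ratio of mean Tox counts was 1.59 (1 Foxo1TKO against 2 Foxo1Ctrl) and 2.06 (2 against 1). Tox was higher in Foxo1TKO on both sides of that split, as any split must give when the groups do not overlap.

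Tox4 did not differ detectably. Its normalized counts were 2727, 2111 and 1889 in Foxo1TKO and 2685, 1560 and 2836 in Foxo1Ctrl replicates 1 to 3. The groups overlapped fully, with both the lowest and the highest value in Foxo1Ctrl. The log2 fold change was -0.07 ± 0.25 (SE), or 0.950-fold (95% interval 0.634 to 1.42), with an adjusted p of 0.864 (edgeR). This interval leaves room for a change of up to about 1.4-fold in the direction of an increase and somewhat more in that of a decrease, so that equal levels were not shown. The sign of the log2 fold change of Tox4 turned with some settings, with values from -0.28 to 0.17, none of which passed the threshold.

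The 3 highest Tox4 values were those of Foxo1TKO replicate 1 and Foxo1Ctrl replicates 1 and 3, the libraries on the first side of the second component. The summed level of the 37 mitochondrial genes moved with the same split. It was 26681, 23659 and 24741 TPM in those libraries, in that order, and 32243, 41893 and 33508 TPM in Foxo1TKO replicates 2 and 3 and Foxo1Ctrl replicate 2. The part of this in the Tox4 values was not tested. Within sides, the log2 ratio of mean Tox4 counts was -0.02 on the first and 0.36 on the second, and with the side as a term the log2 fold change was 0.17, with an adjusted p of 0.302 (edgeR).

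**Figure D1:**
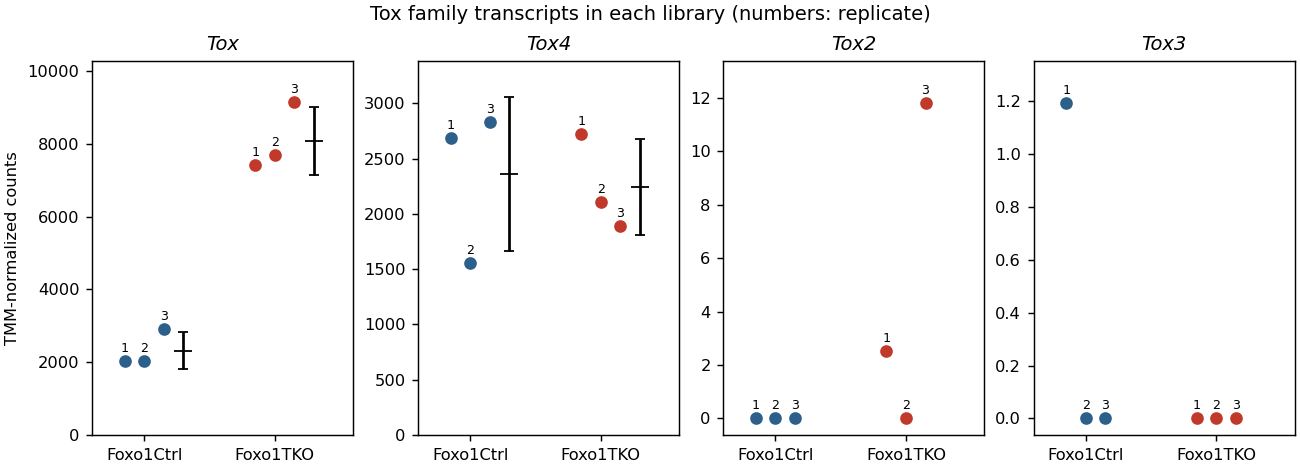
TMM-normalized counts of Tox, Tox4, Tox2 and Tox3 in each of the 6 libraries (points, numbered by replicate), each panel with its own linear axis, and for Tox and Tox4 the mean with SD of 3 libraries (bars). The Foxo1TKO libraries held 7416 to 9152 Tox counts against 2025 to 2903 in Foxo1Ctrl, whereas Tox4 overlapped and Tox2 and Tox3 were at or near 0.

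Tox2 was seen in Foxo1TKO only, at very low counts. The expected counts were 3, 0 and 11 in Foxo1TKO replicates 1 to 3 and 0 in each Foxo1Ctrl library. Most of the signal therefore came from Foxo1TKO replicate 3, for which the Poisson 95% interval was 5.49 to 19.7 counts. The same interval of a count of 0 reaches up to 3.69 counts. These intervals cover counting error only. On the TPM scale the level was 0.26 in that library, 0.08 in Foxo1TKO replicate 1, and under a limit of 0.124 to 0.175 in the 4 libraries at 0. This limit was set at 3 counts, somewhat below the upper end of that interval. Tox2 was below the minimum of 10 counts in 3 libraries. Fitted without that minimum, its adjusted p was 0.114 (edgeR), and no fold change is given because 1 library decided it. The base composition of Tox2 was also extreme, its transcripts holding 62.5% G and C, more than 99.2% of the tested genes, and the effect of this on its detection was not tested.

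Tox3 had 1 count in Foxo1Ctrl replicate 1 and 0 in the other 5 libraries. It was thus not detectable at this depth in Foxo1TKO, where the limit of 3 counts was 0.111 to 0.127 TPM in each library. The level of Tox3 cannot be ordered against that of Tox2 outside Foxo1TKO replicate 3.

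Levels of the members were compared per length, in TPM. Tox had 169 ± 6.89 TPM in Foxo1TKO and 46.1 ± 13 in Foxo1Ctrl (SD, n = 3), and Tox4 had 34.5 ± 13.5 and 33.3 ± 13.8. From highest to lowest, the order was Tox in Foxo1TKO, Tox in Foxo1Ctrl, Tox4 in either genotype, and then Tox2 and Tox3, whose order was left unset. Only the first step exceeded the spread among the abundant members, since the ranges of Tox and Tox4 overlapped in Foxo1Ctrl. By mean TPM, Tox was the 2964th of the tested genes in Foxo1Ctrl and the 1051st in Foxo1TKO, whereas Tox4 kept nearly its place (3666th and 3679th).

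To compare the members without any scaling between libraries, the ratio of Tox to Tox4 was taken within each library. The log2 ratio of TPM was 1.81, 2.46 and 2.82 in Foxo1TKO and 0.18, 0.96 and 0.45 in Foxo1Ctrl replicates 1 to 3. Tox exceeded Tox4 in all 6 libraries, and the 2 genotypes did not overlap. The difference of the log2 ratios was 1.83, with p = 0.1 in the two-sided exact permutation test (adjusted p = 0.2 over the 8 comparisons of this kind), which is the smallest p that 3 against 3 libraries allow.

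The family as a whole summed to 224, 190.3 and 196 TPM in Foxo1TKO and to 81.0, 52.7 and 105 TPM in Foxo1Ctrl. Tox made up 83.3% ± 4.99 of this sum in Foxo1TKO and 59.0% ± 6.55 in Foxo1Ctrl (SD, n = 3). Tox4 made up most of the rest, 16.7% ± 5.02 and 41.0% ± 6.53. In none of these 3 measures did the genotypes overlap (each p = 0.1, two-sided exact permutation test, adjusted p = 0.2). Tox2 reached at most 0.133% and Tox3 at most 0.0371% of the sum in any library.

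The deposited gene length is the mean length of a gene's transcripts, weighted by their estimated abundance, and moves when the mix of isoforms does. For Tox it was 3275, 3305 and 3456 bases in Foxo1TKO and 3395, 3462 and 3436 bases in Foxo1Ctrl replicates 1 to 3. For Tox4 it was 4166, 4896 and 4947 bases in Foxo1TKO and 5007, 5113 and 4525 bases in Foxo1Ctrl. Both genes had overlapping genotypes, with differences of -85.8 bases for Tox (p = 0.3) and -212 bases for Tox4 (p = 0.5, two-sided exact permutation tests, adjusted p = 0.48 and 0.571). Both values leaned on single libraries. With each library left out in turn, the difference ranged from -141 (without Foxo1TKO replicate 3) to -50.5 bases (without Foxo1TKO replicate 1) for Tox. For Tox4 it ranged from -390.2 (without Foxo1Ctrl replicate 3) to 39.9 bases (without Foxo1TKO replicate 1), where it changed sign, and was -325 and -350.4 without Foxo1TKO replicates 2 and 3, -149 without Foxo1Ctrl replicate 1 and -96.3 without Foxo1Ctrl replicate 2. No shift of isoforms was thus detected for either gene, although 3 libraries per genotype could not have passed the threshold. Only 1 of the 4 annotated Tox transcripts and 1 of the 5 Tox4 transcripts are protein-coding, against all 5 of Tox2 and all 3 of Tox3.

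**Figure D2:**
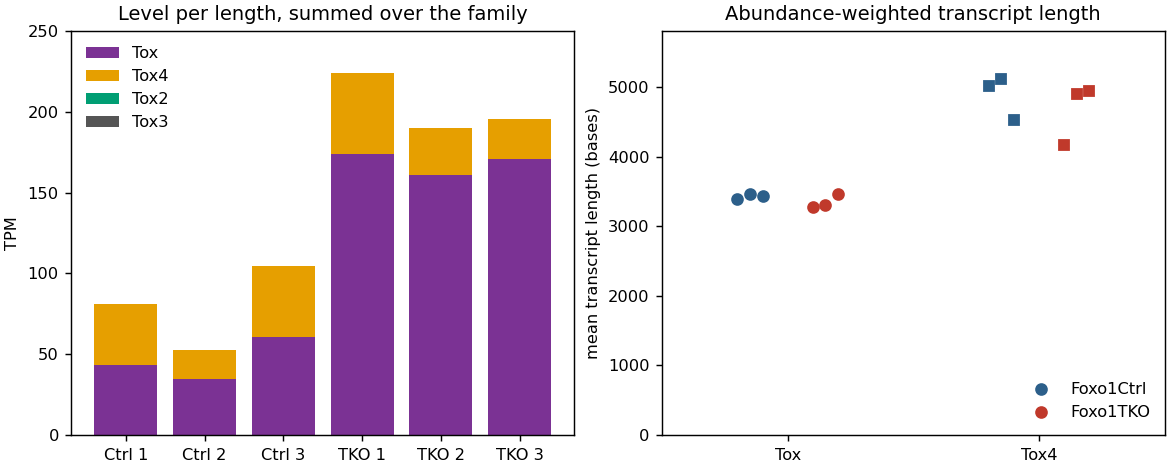
Left, TPM of the family members stacked in each library; Tox2 and Tox3 are too low to be seen. Right, abundance-weighted mean transcript length in bases of Tox (circles) and Tox4 (squares), 1 point per library, in Foxo1Ctrl (blue) and Foxo1TKO (red): Tox filled 77.7 to 87.4% of the bar in Foxo1TKO and 53.2 to 66.1% in Foxo1Ctrl, while the lengths of the genotypes overlapped.

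Tox kept its direction and its call under all 18 alternative settings, with log2 fold changes of 1.70 to 1.99 and adjusted p of 5.74e-15 to 0.00482 (edgeR, DESeq2 or limma). The settings covered other tests, scalings and filters, corrections for transcript length and GC content, and each library left out. Tox4 passed the threshold under none of them.

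**Figure D3:**
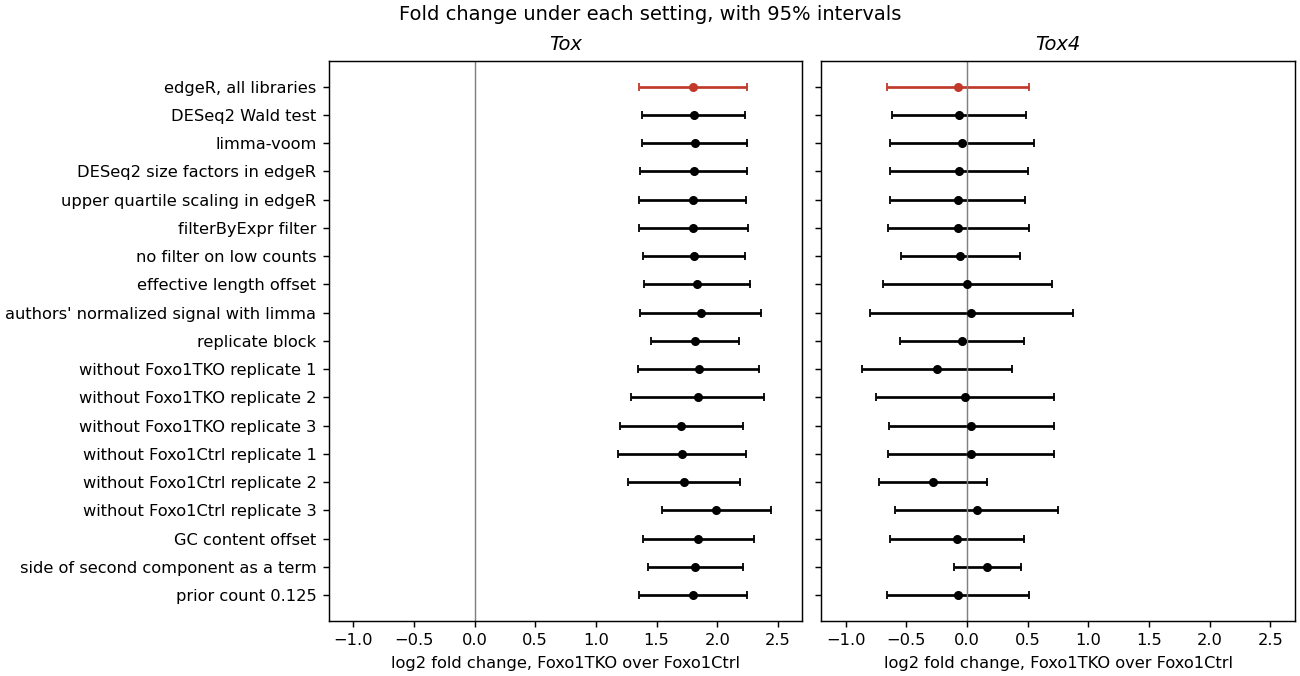
Log2 fold change (Foxo1TKO over Foxo1Ctrl) of Tox and Tox4 with its 95% interval under each setting, the reported fit in red. All values of Tox lay between 1.70 and 1.99, and all intervals of Tox4 crossed 0.

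The neighbourhood of the members was then examined. An antisense gene, Gm11802, shares 260 exonic bases with Tox but had at most 5.92 normalized counts in any library. Tox4 shares 933 exonic bases with Mettl3, which encodes the catalytic subunit of the m6A RNA methyltransferase, and 195 with Rab2b, a small GTPase, both on the opposite strand. Neither was called, with log2 fold changes of 0.05 and -0.23. Strandedness of the counting is not given in the sources used here, so that reads of Tox4 and of these partners may not have been told apart in the shared bases. Next to Tox, the nearest tested genes were Nsmaf, 232082 bases away (log2 fold change -0.16), and Rab2a, 1544087 bases away (1.02, adjusted p 0.123, edgeR). Neither gene beside Tox was called, and among the 8 tested genes nearest to a member only Chd9, a chromatin remodeller 480009 bases from Tox3, was called (log2 fold change 0.70, higher), while 23.0% of all genes were. Rab2a had its 2 highest counts in Foxo1TKO replicates 2 and 3 (1546 and 1746) and its Foxo1TKO replicate 1 (516) fell within the range of Foxo1Ctrl.

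Foxo factors bind DNA through a forkhead domain. The motif GTAAACA (or its reverse complement TGTTTAC) was searched in promoter windows of RefSeq (GRCm38.p6, 300 bases around each start), in which 3 members matched by symbol (Tox2, Tox3 and Tox4). Tox, the member called different, had no window there, so that its promoter was not searched. None of the 5 windows of Tox2 nor the 1 each of Tox3 and Tox4 held the motif, against 1199 of all 32851 windows (3.65%). Its shorter core GTAAAC (or GTTTAC) was in 1 of the 5 windows of Tox2, in the window of Tox4 and not in that of Tox3, against 2593 of all windows (7.89%). These matches are descriptions of the sequence.

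The genes most like each member over the 6 libraries were found by the root mean square difference of log2 CPM (counts scaled to library size), each centred on its mean, among the same 9235 genes. For Tox they were Snhg15 (0.074), Tmem41a (0.086), Dancr (0.097), Rangrf (0.098) and Samd3 (0.12). Snhg15 and Dancr are long noncoding RNAs that host small nucleolar RNAs. Like Tox, each of the 5 was highest in Foxo1TKO replicate 3 and below its own mean in all Foxo1Ctrl libraries, but its mean in Foxo1TKO was 315 to 2470 normalized counts, against 8088 for Tox. For Tox4 the nearest were Ammecr1l and Anks3 (0.042 each), Rmnd5b (0.047), Tradd (0.05) and Tmem129 (0.057). They shared with Tox4 the low value of Foxo1Ctrl replicate 2. Such shared high and low libraries follow largely from how the genes were picked. The profiles are descriptions over 6 libraries that share their depth and their place on the second component.

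**Figure D4:**
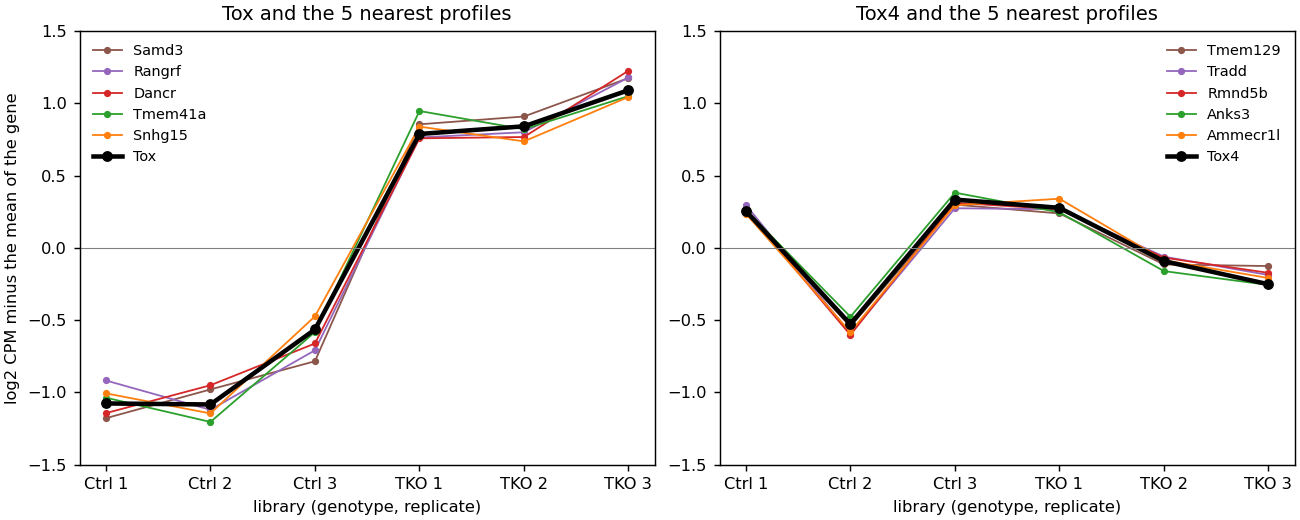
Log2 CPM minus the mean of each gene, for Tox (left, black) and Tox4 (right, black) with the 5 nearest genes each (colours), in the 6 libraries; lines only join the values of a gene. Tox runs from -1.08 to 1.09 with its Foxo1TKO libraries above all Foxo1Ctrl libraries, and Tox4 from -0.53 to 0.34 with a low point in Foxo1Ctrl replicate 2.

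Other HMG-box genes moved in both directions. Of 41 listed, 22 were tested, 4 were called higher and 3 lower, beside 11.1% higher and 11.8% lower of all genes tested, and their median log2 fold change was -0.11, beside 0.01 for all genes tested. The 4 higher calls fell to 2 without Foxo1Ctrl replicate 1, when Hmgxb4 and Wdhd1 were lost, and Wdhd1, a factor of DNA replication, kept its call in 1 of 6 fits that leave out a library. The largest increases were those of Hmgb3, a chromatin protein (2.65), Sox4, a factor of T cell development (2.42), and Hmgxb4 (0.96). The largest decreases were those of Lef1, a partner of beta-catenin in naive T cells (-1.79), the histone methyltransferase Kmt2c (-1.05) and Bbx (-0.71). Tox, with a log2 fold change of 1.80, thus lay below Hmgb3 and Sox4 and above the other listed HMG-box genes that were tested. Hmgb genes have processed copies in the mouse genome, among which RSEM divides shared reads.

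Calcineurin and NFAT act upstream of Tox in exhausted cells, and Nr4a factors cooperate with Tox there. The list of 14 genes, all tested, also holds Egr2, Egr3 and the calcineurin regulators Rcan1 and Cabin1. Of the 14, 5 were higher and 3 lower in Foxo1TKO (median log2 fold change 0.30), beside 11.1% and 11.8% of all genes tested. Egr3 (1.41) was among the higher calls. The 5 higher calls fell to 3 without Foxo1TKO replicate 1, Foxo1TKO replicate 2 or Foxo1Ctrl replicate 1, Nfatc1 and Nr4a1 being lost. The Nr4a nuclear receptors Nr4a2 (4.01), Nr4a3 (3.28) and Nr4a1 (2.63) rose more than Tox, whereas the calcineurin subunits Ppp3ca (-2.14) and Ppp3cc (-0.89) and the factor Nfatc3 (-1.01) fell. The list thus held changes in both directions beside the rise of Tox.

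Among complexes that Tox proteins are known to join, none of the 10 genes of the HBO1 acetyltransferase complex, a partner of Tox, was called by edgeR, DESeq2 or limma-voom. At an unadjusted p under 0.05, edgeR counted 1 of them and DESeq2 and limma-voom 2 each, and their median log2 fold change was 0.00. With the side of the second component as a term, edgeR called 1 of them lower. Of the 5 genes of the PTW/PP1 phosphatase complex, the partner of Tox4, the phosphatase Ppp1cb was higher (log2 fold change 1.44) and the others were not called. With the side of the second component as a term, edgeR called 1 of the 5 higher and 1 lower. With 23.0% of all genes tested called, these counts were not read as a property of the complexes.

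Genes linked to Tox in exhausted, effector and thymic T cells were read beside it, and the counts called are to be held against 11.1% higher and 11.8% lower of all genes tested. Of 8 inhibitory receptors, 4 were higher, led by Pdcd1 (log2 fold change 4.57), which encodes PD-1, Cd160 (3.70) and Cd244a (2.15), and 2 were lower, Ctla4 (-4.17) and Entpd1 (-1.99), with a median of 0.63. Of 9 effector-type genes tested, 2 rose, the repressor Zeb2 (3.8) and the chemokine receptor Cx3cr1 (2.86), and 2 fell, the repressor Prdm1 (-4.08) and granzyme B, Gzmb (-2.41). The fitted change of Prdm1 rests on a mean of 2.98 normalized counts in Foxo1TKO and that of Cx3cr1 on 1.29 in Foxo1Ctrl. Of 8 CD4 lineage genes tested, Runx1 was higher (0.78) and Runx3 (-1.21) and Bcl11b (-0.68) were lower, of which 1 call was left without Foxo1TKO replicate 2. For the 13 tested follicular helper genes that are linked to Tox2, the median was -0.59, with 3 higher, Cd200 (1.78), Bcl6 (1.58) and Pou2af1 (1.11), and 5 lower, led by Il6ra (-4.53), Slamf6 (-3.72) and Il21 (-3.60, from a mean of 2.04 normalized counts in Foxo1TKO). Tox2 itself was at or near 0 in the same libraries.

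All of these list calls were made by edgeR at the thresholds given above, with adjusted p up to 0.0490. Some of them were not kept when a library was left out, in fits that have fewer samples. Nr4a1, Cx3cr1 and Pou2af1 kept their calls only when Foxo1Ctrl replicate 3 was left out, and Runx1 only when Foxo1TKO replicate 3 was left out (adjusted p up to 0.13, 0.0872, 0.117 and 0.0869, edgeR). Bbx was lost without Foxo1TKO replicate 1 or 2, Ppp3cc and Bcl11b without Foxo1TKO replicate 2, and Hmgxb4 without Foxo1Ctrl replicate 1 (adjusted p up to 0.0615, 0.0584, 0.0668 and 0.0553, edgeR).

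**Figure D5:**
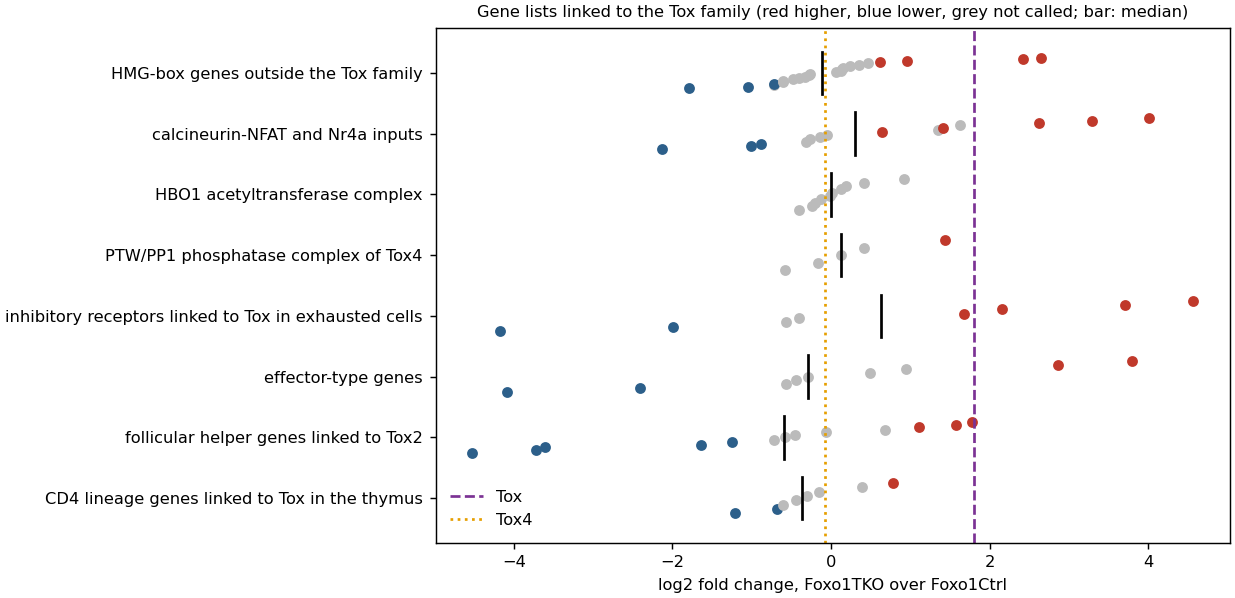
Log2 fold change (Foxo1TKO over Foxo1Ctrl) of each tested gene in the 8 lists linked to the Tox family (points; red called higher, blue called lower, grey not called), with the median of each list (black bar) and the values of Tox (dashed line) and Tox4 (dotted line). The lists spread to both sides of 0, and the median of the inhibitory receptors, 0.63, was the highest.

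Markers of other cells that the cultures could hold were summed and read beside the rise of Tox. The sums of the B cell, NK cell and myeloid lists did not overlap between genotypes, whereas those of the regulatory T cell list did. The 8 B cell markers summed to 7.28 to 10.9 TPM in Foxo1TKO and 24.1 to 31.6 in Foxo1Ctrl, with 4 of 7 tested called lower (11.8% of all genes tested were). Of these 4, Ms4a1 and Cd79b kept their calls with each library left out, and the count fell to 2 without Foxo1TKO replicate 1, Foxo1Ctrl replicate 1 or Foxo1Ctrl replicate 3. The 5 NK cell markers summed to 57.0 to 88.7 TPM in Foxo1TKO and 116 to 162 in Foxo1Ctrl, with Klrk1 called lower and Klra8 at 0 in all libraries. Mean normalized counts of Klrk1 were 1419 in Foxo1TKO and 2970 in Foxo1Ctrl, far above those of Klrb1c (31.6 and 51.3) and Klre1 (16.5 and 12.2). The 10 myeloid and dendritic markers summed to 13.7 to 15.6 TPM in Foxo1TKO and 4.15 to 7.29 in Foxo1Ctrl, with Itgax, an integrin, the only 1 of the 4 tested that was called. Mean normalized counts of Itgax were 415 in Foxo1TKO and 0.72 in Foxo1Ctrl. Cd68 leaned the same way (69.5 and 41.2), whereas Itgam (14.3 and 32.3) and Zbtb46 (128 and 179) leaned the other way. By normalized counts, the NK cell and myeloid differences thus leaned on 1 gene each. The 5 regulatory T cell markers summed to 970 to 1267 TPM in Foxo1TKO and 826 to 988 in Foxo1Ctrl, and their median log2 fold change was -0.02. Foxp3, which defines these cells, had 10.5 ± 4.25 normalized counts in Foxo1TKO and 21.1 ± 6.01 in Foxo1Ctrl (SD, n = 3) and was not called (adjusted p 0.165, edgeR). Of the 5, only Lrrc32 was called (higher), and its call was lost without Foxo1TKO replicate 2 or Foxo1Ctrl replicate 1 (adjusted p up to 0.0656, edgeR). Their part in the Tox values was not tested, and in bulk RNA fewer cells of a type and less RNA per cell cannot be told apart.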

How the data were processed

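RNA-seq of 3 Foxo1TKO and 3 Foxo1Ctrl cultures was analysed, grouped by the genotype in the labels. The authors aligned reads with STAR 2.7.6a to GRCm38 and deposited RSEM 1.3.1 expected counts, TPM and transcript and effective lengths per gene and library. The authors also deposited a normalized signal, which is counts divided by DESeq2 size factors and relative effective lengths. The deposited FPKM values were not used.

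Expected counts were rounded. A gene was tested if 3 or more libraries had 10 counts or more, which kept at least 99.88% of the counts of each library. Genotypes were compared with edgeR 4.0.16 (TMM, glmQLFit and glmQLFTest, prior count 1, genotype only) in R 4.3.3, after the script was tested on simulated data. The deposited TPM gave levels between genes. Ratios, shares and lengths were compared by exact permutation (scipy 1.17.1). Alternatives were DESeq2 1.42.0, limma-voom 3.58.1, other scalings, filters and prior count, effective lengths, the authors' signal with limma on log2(value + 1), a replicate block, and each library left out with the tested genes kept. A GC offset and the side of the second component were added after the data were seen. Coding sequences of GENCODE M21 were aligned with mafft 7.526. Named genes were the members, Foxo1, nearest and overlapping genes, the 5 nearest profiles, and up to 3 largest calls per direction of each list. Wdhd1, Nfatc1, Egr2, Egr3, Rcan1, Cabin1 and single marker genes were added after their values were seen. Members and lists were chosen with earlier results of these data known. Figures used matplotlib 3.10.9.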

Additional observations from a re-analysis of the deposited data

Results flagged for a closer look

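Tox2 was left out of the comparison of genotypes because it had too few counts, yet Foxo1TKO replicate 3 held 11 expected counts of it. This is above the 3.69 counts that the Poisson 95% interval of a count of 0 allows, while every Foxo1Ctrl library was at 0. The summed counts were 14 in Foxo1TKO and 0 in Foxo1Ctrl. No other library exceeded 3 counts, and the reason why 1 library stood apart was not tested.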

How the results depend on the processing

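Tox kept its direction and call under all 18 alternatives. The log2 fold change of Tox4, -0.07, changed sign at 0.002 with effective lengths, 0.034 with the authors' signal and 0.17 with the side of the second component as a term. It ranged from -0.28 to 0.079 with each library left out in turn, being positive without Foxo1TKO replicate 3 (0.035), Foxo1Ctrl replicate 1 (0.029) or Foxo1Ctrl replicate 3 (0.079). The cause was not tested, and no value passed the threshold. The count of genes called, 3144, fell to 1854 without Foxo1TKO replicate 2 and to 2031 without Foxo1Ctrl replicate 1, with 3321 the highest of the 6 fits that leave out a library, which have fewer samples. The other alternatives gave 2792 to 4458. The genotype differences in the ratio of Tox to Tox4 and in the share of Tox moved by less than the spread between libraries. With a library left out this could not be otherwise, since dropping 1 of 3 libraries cannot move a group mean by more than that group's SD. Effective-length-corrected TMM counts and the authors' signal give the same difference in ratio as TPM by construction. These fits therefore did not test stability. Only the share from counts not divided by length was free to move further. With each library left out, the difference in transcript length ranged from -141 to -50.5 bases for Tox and from -390.2 to 39.9 bases for Tox4, changing sign without Foxo1TKO replicate 1, and the cause was not tested. Calls in the lists went from 37 to between 28 and 48.

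Whether replicate numbers pair the libraries is not given in the labels. The paper compared PD-1, TIGIT and division of Foxo1TKO and Foxo1Ctrl cultures in pairs, each from an individual experiment. Deviations of same-numbered libraries from their group means correlated at 0.43, 0.20 and -0.11, and Foxo1TKO replicate 3 correlated best with Foxo1Ctrl replicate 2 (0.30). Correlations were positive only between libraries on the same side of the second component, so that they cannot decide on pairing. With the replicate block, the log2 fold change was 1.82 for Tox (adjusted p 0.00053, edgeR) and -0.04 for Tox4, and 3317 genes were called. At 14783890 to 19675447 counts per library, depth limits what can be said of Tox2 and Tox3 among the members. Listed genes with very low counts in either genotype, such as Prdm1, Il21, Cx3cr1 and Itgax, are limited in the same way.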
